A study of Homo sapiens with 21 samples.

Results

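The genes described here are 10 transcripts of the ATF4 and CHOP stress response, chosen by name for their known place in that response and not by a threshold on measured values: ATF4, DDIT3, TRIB3, CHAC1, ASNS, GDF15, FGF21, SESN2, PPP1R15A and ATF3. The choice was made with earlier results of these data known. All 10 were among the 37637 features of the count table, and 9 of them were among the 17468 features with enough counts to be tested. FGF21 was the exception. RNA was sequenced from HepG2, an established human line derived from a liver tumour, after 6 h in serum-free medium with caffeine at 0.01, 0.1, 1, 10, 100 or 1000 µM, or without caffeine (labelled 0 µM). Each of the 7 groups held 3 libraries, and all groups, controls included, shared the change to serum-free medium. The labels call the libraries replicates but name no separate cultures, so p-values measure the spread between these libraries, which may be technical.

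In the integrated stress response, kinases that sense amino acid shortage, misfolded proteins in the endoplasmic reticulum, double-stranded RNA or haem deficiency phosphorylate the translation factor eIF2alpha. General protein synthesis then slows while the transcription factor ATF4 is translated more, so much of the regulation of ATF4 is at the level of protein. ATF4 induces genes of amino acid supply, the transcription factor CHOP (gene DDIT3), and feedback inhibitors such as TRIB3 and PPP1R15A, and in liver cells it can induce the secreted hormones FGF21 and GDF15.

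ATF4, CHOP and their C/EBP partners bind DNA through a composite element whose core was searched here as TGATGNAA, on both strands. The search covered the 300 bases around each start site (250 upstream, 50 downstream) in RefSeq promoters of GRCh38.p14, where all 10 genes had an entry. The core was found in 4 of the 10, at 68 bases upstream of the start in ASNS, 191 in ATF3, 209 in CHAC1 and 54 in FGF21. Of all 35116 promoters of the same length, 3.62% held it. The matches are shown because this is the element through which ATF4 is known to act, and capitals mark the motif. The ASNS stretch is on the minus strand at chr7:97872458-97872487, ATF3 is on the plus strand at chr1:212565190-212565249, CHAC1 on the plus strand at chr15:40953251-40953280 and FGF21 on the plus strand at chr19:48755444-48755503. In CHAC1 and FGF21 the match is to the reverse complement of the core. Distances are counted from 1 RefSeq start per gene, so a match or its absence holds for that start only. The windows of TRIB3 (chr20:381045-381344) and GDF15 (chr19:18385908-18386207) lie inside the gene spans given below. The ASNS and CHAC1 stretches touch an exon of GENCODE v29 and lie within the spans it gives for these genes.
ASNS: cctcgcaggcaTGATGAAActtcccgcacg
ATF3: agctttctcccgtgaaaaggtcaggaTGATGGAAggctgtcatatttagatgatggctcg
CHAC1: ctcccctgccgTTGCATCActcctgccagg
FGF21: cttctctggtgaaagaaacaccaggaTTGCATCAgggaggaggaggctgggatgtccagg

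The full cAMP response element TGACGTCA, bound by CREB and ATF family dimers, was in 1.85% of all promoters and in 1 of the 10, PPP1R15A, 58 bases upstream of the start (plus strand, chr19:48872352-48872381). The AP-1 element TGACTCA was in 4.95% of all promoters and in 1 of the 10, DDIT3, 241 bases upstream (minus strand, chr12:57520738-57520764). The DDIT3 stretch also touches a GENCODE v29 exon and lies within the span given there for the gene. The ER stress element, bound by ATF6, was in 0.0769% of all promoters and in none of the 10. Each of the 6 promoters named held 1 match to 1 of the 4 motifs, so no matches overlapped. A match describes the letters of these windows and does not show that a factor binds there.
PPP1R15A: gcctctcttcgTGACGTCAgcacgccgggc
DDIT3: gcgcgcgcaTGACTCAcccacctcctc

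The libraries held 28043623 to 40827833 counts (median 32497612), and a level is given below as CPM, counts relative to the library's own total after scaling by the trimmed mean of M-values (TMM). No pair of replicates agreed within sampling noise (chi-square per gene of 5.46 to 207). Mitochondrially encoded RNA made up 4.95% to 14.2% of a library. Hepatocyte markers summed to 26036 to 31351 CPM in every library, with all 10 detected. Of 8 markers of other cell types, 6 were in the table, COL1A2 was at 0 in all libraries, and CD68 made up most of their summed 53.7 to 109 CPM. In bulk RNA, a change in the number of cells that express a gene cannot be told apart from a change in RNA per cell.

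Levels between genes are compared only per kilobase of exon (GENCODE v29). Without caffeine ATF4 was the most abundant at 238 ± 18.1 CPM per kb (SD, n = 3), followed by GDF15 at 107 ± 13.5, TRIB3 at 46.7 ± 3.86, PPP1R15A at 22.5 ± 0.521, ASNS at 14.2 ± 0.583, SESN2 at 9.31 ± 0.315, DDIT3 at 6.91 ± 0.148, CHAC1 at 1.12 ± 0.0605 and ATF3 at 0.596 ± 0.100 CPM per kb. Each neighbour in this order was separated by more than the spread of its libraries. At 1000 µM caffeine the order was the same down to DDIT3 (4.60 ± 0.711 CPM per kb) and CHAC1 (3.04 ± 0.661). There ASNS (19.5 ± 1.21 CPM per kb) and PPP1R15A (23.1 ± 3.81) overlapped, since their libraries ranged up to 20.8 and down to 20.6. FGF21, a liver hormone of fasting and amino acid shortage, had 0 to 2 counts per library and 10 counts over all 21 libraries, below the floor of 3 counts per library (0.0735 to 0.107 CPM). No level or change of FGF21 was detectable at this depth.

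**Figure D1:**
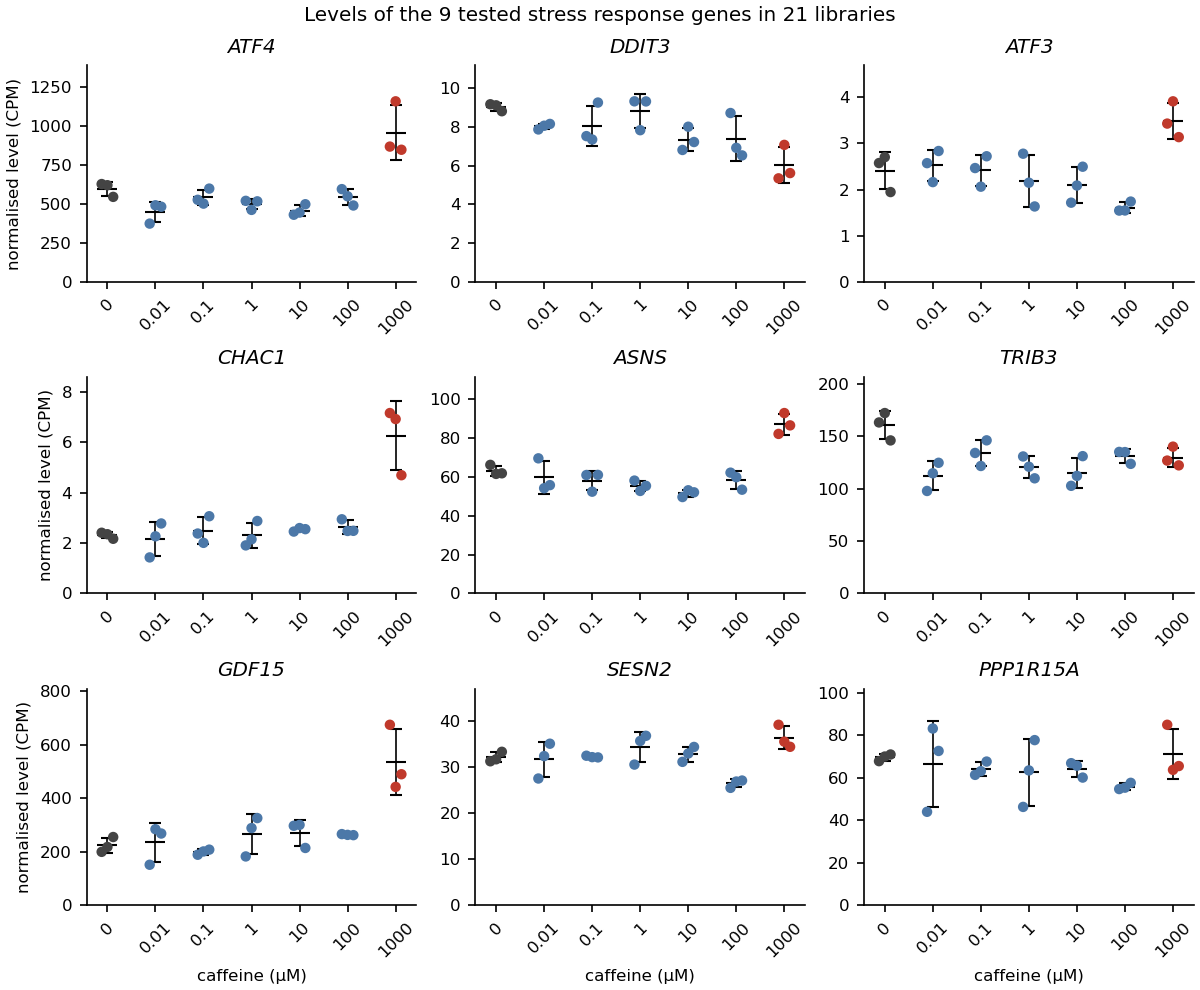
Level of each stress response gene in every library (CPM, linear axis from 0, 1 panel per gene) against the caffeine dose in µM; each point is 1 library, horizontal marks are group means and bars are ± SD (n = 3). The 3 libraries at 1000 µM lie above all 18 others for ATF4, CHAC1, ASNS, GDF15 and ATF3, and lie low for DDIT3.

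The highest dose, 1000 µM against 0 µM, changed 7 of the 9 tested genes (edgeR quasi-likelihood, Benjamini-Hochberg adjusted p under 0.05). CHAC1, GDF15, ATF4, ATF3 and ASNS rose, and DDIT3 and TRIB3 fell. Of all genes tested, 41.2% passed in this comparison, 20.6% higher and 20.6% lower, so a call alone is common at this dose. In 8 of the 9 genes the libraries at 1000 µM did not overlap the controls, 6 above and 2 below. Of all genes, 53.2% did not overlap, 25.9% above and 27.3% below. The median log2 fold change of the 9 was 0.46, beside -0.03 over all genes.

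ATF4 (ENSG00000128272.14, GRCh38 chr22:39519695-39522685, plus strand) is the transcription factor at the centre of the response. Its level was 628, 620 and 545 CPM in the controls and 868, 1159 and 848 CPM at 1000 µM. At 0.01 to 100 µM the 15 libraries ran from 373 through a median of 498 to 598 CPM. All 3 libraries at 1000 µM were above all others, and 12 of the 15 at intermediate doses were below the lowest control. The log2 fold change at 1000 µM was 0.68 ± 0.13 (SE), with an adjusted p of 0.00046.

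DDIT3 (ENSG00000175197.12, chr12:57516588-57521737, minus strand) encodes CHOP, the factor through which prolonged stress favours cell death. It was at 9.17, 9.11 and 8.81 CPM in the controls and at 5.34, 7.07 and 5.61 CPM at 1000 µM, so all 3 treated libraries were lower. Between them, the 15 libraries at 0.01 to 100 µM ranged from 6.52 to 9.32 CPM with a median of 7.86 CPM. The log2 fold change was -0.59 ± 0.13 (SE; adjusted p 0.0019), opposite in sign to that of ATF4. In GENCODE v29 DDIT3 shares exon sequence with AC022506.1 on its own strand and with MARS and MBD6 on the other, so its counts are uncertain.

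ATF3 (ENSG00000162772.17, chr1:212565334-212620777, plus strand) is a stress-induced factor of the same family that acts mostly as a repressor. It had 2.58, 2.70 and 1.95 CPM in the controls, 1.54, 1.55 and 1.74 CPM at 100 µM, and 3.43, 3.92 and 3.14 CPM at 1000 µM. The libraries at 1000 µM were above all 18 others, and those at 100 µM were below all controls. Its rise from 0 to 1000 µM was 0.54 ± 0.20 on the log2 scale (adjusted p 0.0356). The call was lost on leaving out replicate 1 or 3 of the controls (adjusted p 0.0576 and 0.129) or replicate 2 at 1000 µM (0.106), with upper quartile scaling (0.0517), with library totals as the only scaling (0.0539) and without the filter on low counts (0.0753).

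Among the genes of amino acid and glutathione metabolism, CHAC1 (ENSG00000128965.13, chr15:40952962-40956519, plus strand) had the largest change of the 9. CHAC1 degrades glutathione and is a target of the ATF4 and CHOP branch. Its level was 2.41, 2.35 and 2.17 CPM in the controls, 2.94, 2.48 and 2.49 CPM at 100 µM, and 7.16, 6.92 and 4.69 CPM at 1000 µM. All libraries at 1000 µM were above the highest of the others, 3.06 CPM at 0.1 µM. The log2 fold change at 1000 µM was 1.44 ± 0.22 (SE; adjusted p 7.8e-05), or 2.71-fold.

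ASNS (ENSG00000070669.17, chr7:97852118-97872542, minus strand) makes asparagine and is the classical amino acid response gene. Its level was 66.1, 61.5 and 61.8 CPM in the controls, 62.1, 59.8 and 53.4 CPM at 100 µM, and 82.1, 92.8 and 86.4 CPM at 1000 µM. The libraries at 1000 µM again stood above all 18 others, the highest of which was 69.5 CPM. The log2 fold change was 0.46 ± 0.10 (SE; adjusted p 0.00099). ASNS shares exon sequence with AC079781.5 on its strand, so part of its counts is uncertain.

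GDF15 (ENSG00000130513.6, chr19:18374731-18389176, plus strand) is a secreted stress hormone that lowers appetite and is also a p53 target. It had 199, 218 and 255 CPM in the controls, 266, 263 and 262 CPM at 100 µM, and 674, 442 and 489 CPM at 1000 µM. Its replicates spread widely at low doses, from 151 to 284 CPM at 0.01 µM and from 182 to 325 CPM at 1 µM, but none reached the lowest library at 1000 µM. The log2 fold change at 1000 µM was 1.26 ± 0.23 (SE; adjusted p 0.00031), or 2.39-fold.

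Neither feedback inhibitor passed as higher at 1000 µM. TRIB3 (ENSG00000101255.11, chr20:362835-397559, plus strand), a pseudokinase that restrains ATF4 and CHOP, was at 163, 172 and 146 CPM in the controls and at 127, 140 and 122 CPM at 1000 µM. The 15 libraries between had 97.8 to 146.1 CPM with a median of 124 CPM, and 14 of them were below the lowest control. At 1000 µM TRIB3 was lower by -0.31 ± 0.11 on the log2 scale (adjusted p 0.0339). The call did not hold on leaving out the first or second control (adjusted p 0.0893 and 0.130), replicate 1 at 0.1 µM (0.0588), replicate 2 at 1 µM (0.0581), either of replicates 1 and 2 at 100 µM (0.0575 and 0.0585), or either of replicates 1 and 3 at 1000 µM (0.112 and 0.128). Neither did it hold with library totals as the only scaling (0.0597) or without the filter on low counts (0.137).

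PPP1R15A (ENSG00000087074.8, chr19:48872392-48876057, plus strand) encodes GADD34, which brings a phosphatase to eIF2alpha and ends the response. It was at 67.9, 70.0 and 71.0 CPM in the controls and at 85.0, 63.8 and 65.6 CPM at 1000 µM, and the groups overlapped. The log2 difference was 0.04, with a 95% confidence interval of -0.35 to 0.43 and an adjusted p of 0.893. Its sign turned without 1000 µM replicate 1 (-0.080) and with upper quartile scaling (-0.0053).

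SESN2 (ENSG00000130766.5, chr1:28259527-28282491, plus strand) encodes a leucine sensor that inhibits the growth kinase mTORC1. Its level was 31.3, 31.7 and 33.4 CPM in the controls, 25.5, 26.9 and 27.1 CPM at 100 µM, and 39.3, 35.6 and 34.5 CPM at 1000 µM. All libraries at 1000 µM were above all controls and all at 100 µM were below them. The log2 difference of 1000 µM from 0 µM was 0.18 with a 95% confidence interval of -0.01 to 0.37, and it did not pass (adjusted p 0.123).

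**Figure D2:**
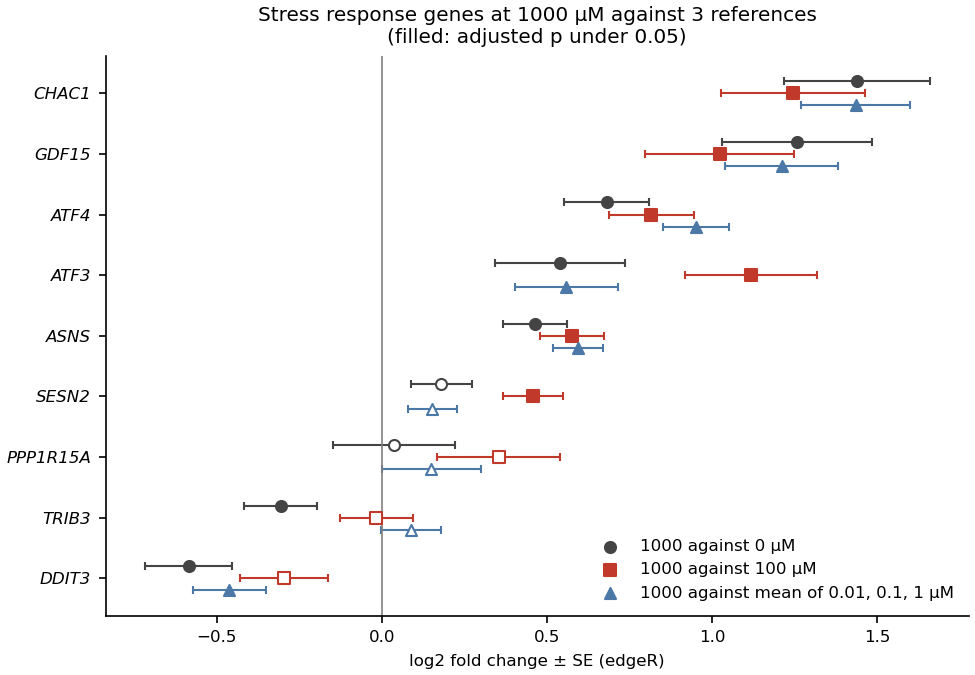
Log2 fold change of the 9 tested genes at 1000 µM against 0 µM, against 100 µM and against the mean of 0.01, 0.1 and 1 µM (symbols, filled where the adjusted p is under 0.05; bars are ± SE of the edgeR fit). CHAC1 and GDF15 stand farthest to the right against 0 µM and against the mean of the low doses, CHAC1 and ATF3 against 100 µM, SESN2 is higher against 100 µM than against 0 µM, and DDIT3 and TRIB3 are below 0 against 0 µM.

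The step from 100 to 1000 µM asks whether the genes differ between the top doses. Its fold change uses no control library, while the scaling, filter and estimate of spread come from the fit of all 21 libraries. CHAC1, ATF3, GDF15, ATF4, ASNS and SESN2 rose, 6 of the 9 genes and none lower, where 14.7% of all genes passed, 8.15% higher and 6.55% lower. The log2 fold changes were 1.25 ± 0.22 (SE; adjusted p 0.00090) for CHAC1, 1.12 ± 0.20 (0.0011) for ATF3 and 1.02 ± 0.22 (0.0051) for GDF15. ATF4 rose by 0.82 ± 0.13 (adjusted p 0.00037), ASNS by 0.58 ± 0.10 (0.00062) and SESN2 by 0.46 ± 0.09 (0.0027). PPP1R15A was at 54.7, 55.4 and 57.7 CPM at 100 µM, below all 3 libraries at 1000 µM, but its log2 difference of 0.35 did not pass (adjusted p 0.215). TRIB3 was at 135, 135 and 124 CPM at 100 µM, and its log2 difference was -0.02 with a 95% confidence interval of -0.25 to 0.22. DDIT3 was at 8.71, 6.92 and 6.52 CPM at 100 µM, overlapping the range at 1000 µM (log2 difference -0.30, adjusted p 0.143). The 6 calls held in all 29 alternatives to this comparison that were run for each gene.

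Set against the mean of 0.01, 0.1 and 1 µM, a fold change that again uses no control library within the same fit, 5 genes rose at 1000 µM and 1 fell, where 30.1% of all genes passed. The log2 fold change was 1.44 for CHAC1, 1.21 for GDF15, 0.95 for ATF4, 0.59 for ASNS and 0.56 for ATF3, and -0.46 for DDIT3 (adjusted p of 3.9e-06, 3.6e-05, 1.2e-06, 1.2e-05, 0.0109 and 0.0040). The ATF3 call was lost without 1000 µM replicate 2 (adjusted p 0.0712). TRIB3, lower than the controls at 1000 µM, was not lower than these doses, with a log2 difference of 0.09 and a 95% confidence interval of -0.10 to 0.28. At 100 µM none of the 9 passed against the same doses by edgeR, where 0.469% of all genes did. There 2 had an unadjusted p under 0.05, as did 1770 of all genes. DESeq2 called 1 of the 9, lower, and 213 of all genes. The count was also 1 on leaving out replicate 1 at 0.01 µM or replicate 1 at 1 µM. Of all genes 111 and 72 were then called.

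Below 1000 µM none of the 9 genes passed as higher than the controls at any dose. At 10 µM TRIB3, ATF4 and ASNS were lower, 3 of 9, where 22.0% of all genes passed and 10.7% were lower. TRIB3 was at 103, 112 and 131 CPM at 10 µM, below all controls, lower by -0.48 ± 0.11 on the log2 scale (adjusted p 0.0079). ATF4 was at 430, 444 and 498 CPM (-0.39 ± 0.13, adjusted p 0.0397), and ASNS at 49.6, 53.1 and 52.0 CPM (-0.29 ± 0.10, adjusted p 0.0383), both below all controls. Of 30 alternatives run for each gene, the TRIB3 call was lost in 1, that of ATF4 in 10 and that of ASNS in 13. The sign was kept in all of them. Without 10 µM replicate 1 none of the 3 passed (adjusted p 0.0515 for TRIB3, 0.146 for ATF4 and 0.137 for ASNS). Calls over all genes also fell there, to 1429 of 17793 from 3839 of 17468 in the main fit. ATF4 and ASNS were also both lost on leaving out replicate 1 (0.138 and 0.143) or 2 (0.112 and 0.0715) of the controls, replicate 1 at 0.1 µM (0.0515 and 0.0546), replicate 2 at 10 µM (0.119 and 0.0782) or replicate 2 at 100 µM (0.0523 and 0.0581). ASNS alone was lost on leaving out replicate 3 of the controls (0.0667), replicate 2 at 1 µM (0.0529), replicate 3 at 10 µM (0.0764) or replicate 1 at 100 µM (0.0519).

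At 0.01 µM only TRIB3 passed, lower at 97.8, 115 and 125 CPM (log2 fold change -0.51, adjusted p 0.0392), where 4.95% of all genes passed, 2.87% higher and 2.08% lower. The call was lost on leaving out replicate 1 or 2 of the controls (adjusted p 0.173 and 0.145) or of 0.01 µM (0.122 and 0.0598). Of all genes 0 were called in each of these settings, against 864 in the main fit. The TRIB3 call was also lost without replicate 1 or 2 of 10 µM (0.0515 and 0.0550) or replicate 2 of 100 µM (0.0509). In each of those settings 1 of all genes was called. Without 1000 µM replicate 2 the count at 0.01 µM was 2, where 958 of 17829 genes passed. At 0.1 and 1 µM none of the 9 passed by edgeR, and of all genes 0% did (2651 and 3980 with an unadjusted p under 0.05). At each of these doses 1 of the 9 had an unadjusted p under 0.05, and DESeq2 called 0 and 1. Of all genes DESeq2 called 1379 at 1 µM. The 1 µM count was 1 without 1 µM replicate 1, where 1264 of 17822 genes passed.

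At 100 µM none of the 9 passed by edgeR, although 6.02% of all genes did, 2.74% higher and 3.27% lower. There 4 had an unadjusted p under 0.05, as did 4467 of all 17468 genes. DESeq2 called 1 of the 9 and 2011 of all genes. The 6 libraries compared alone gave 4 of the 9, all lower, and 4015 of 16230 genes. At 100 µM the libraries of 5 genes (ATF3, DDIT3, PPP1R15A, SESN2 and TRIB3) lay under the lowest control and those of CHAC1 and GDF15 over the highest, 7 of 9. Of all genes, 43.0% did not overlap in this way, 21.0% over and 22.0% under. The median log2 fold change of the 9 was -0.08, -0.12, -0.13, -0.20 and -0.28 at 0.01, 0.1, 1, 10 and 100 µM, each against the same 3 controls. Without 0.01 µM replicate 1 the count of calls at 100 µM was 1, where 2002 of 17782 genes passed.

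**Figure D3:**
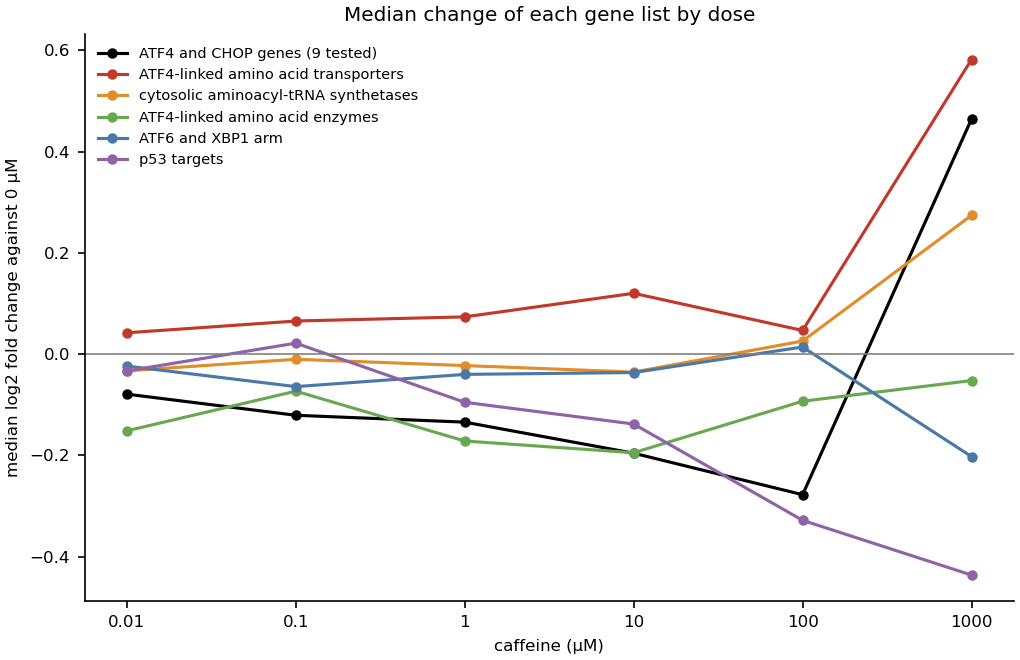
Median log2 fold change against 0 µM (y axis) at each caffeine dose (x axis) for the ATF4 and CHOP genes and 5 related lists, each line 1 list, with all doses sharing the 3 control libraries. The median of the ATF4 and CHOP genes is below 0 from 0.01 to 100 µM and 0.46 at 1000 µM.

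Across the 7 groups, 8 of the 9 genes differed (28.1% of all genes did), with PPP1R15A the exception (adjusted p 0.671). Without the 3 libraries at 1000 µM none of the 9 passed (edgeR, 3 with an unadjusted p under 0.05), where 159 of 17329 genes did. Along the rank of the dose, 3 genes rose and 1 fell, where 29.0% of all genes passed. The slope per dose step was 0.20 for CHAC1, 0.17 for GDF15, 0.09 for ATF4 and -0.08 for DDIT3 on the log2 scale (adjusted p of 0.0019, 0.0019, 0.0380 and 0.0070). None of the 9 slopes passed without the 1000 µM libraries (edgeR, 2 with an unadjusted p under 0.05), where 1051 of 17329 genes did. The slope of ATF4 was then -0.02. The ATF4 slope also missed the threshold without 0.01 µM replicate 1 (adjusted p 0.0518) or any library at 1000 µM (0.0973, 0.160 and 0.106 without replicates 1, 2 and 3). With the 18 treated libraries alone the DDIT3 slope missed it (0.0673).

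ATF4 and TRIB3 varied together below 1000 µM and parted at that dose. Over the 18 libraries from 0 to 100 µM the Pearson r of their log2 CPM was 0.90, and over all 21 it was 0.49. The libraries at 0.01 µM replicate 1 (373 CPM of ATF4, 97.8 of TRIB3) and control replicate 2 (620 and 172 CPM) stood near the ends of that range, while at 1000 µM ATF4 was above every other library and TRIB3 was within the range of the treated ones. ATF4 and CHAC1 had an r of 0.52 below 1000 µM and 0.88 over all libraries. ATF4 and ASNS had 0.33 and 0.83, and ATF4 and GDF15 had -0.03 and 0.66.

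Several pairs changed the sign of their Pearson r with the top dose. ASNS and GDF15 had an r of -0.60 over the 18 libraries and 0.51 over 21, and GDF15 and ATF3 had -0.64 and 0.26. DDIT3 and ATF4 had 0.51 and -0.36. By rank (Spearman) these pairs, in the same order, had -0.49, -0.52 and 0.51 over the 18 libraries. Over all 21 they had 0.06, 0.04 and 0.005. Of the 36 pairs of tested genes, 12 had a Pearson r below 0 over the 18 libraries and 9 over all 21. The median Pearson r was 0.26 and 0.30. These values describe libraries that share depth and composition, and 3 libraries at 1 dose set the difference between the 2 sets.

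**Figure D4:**
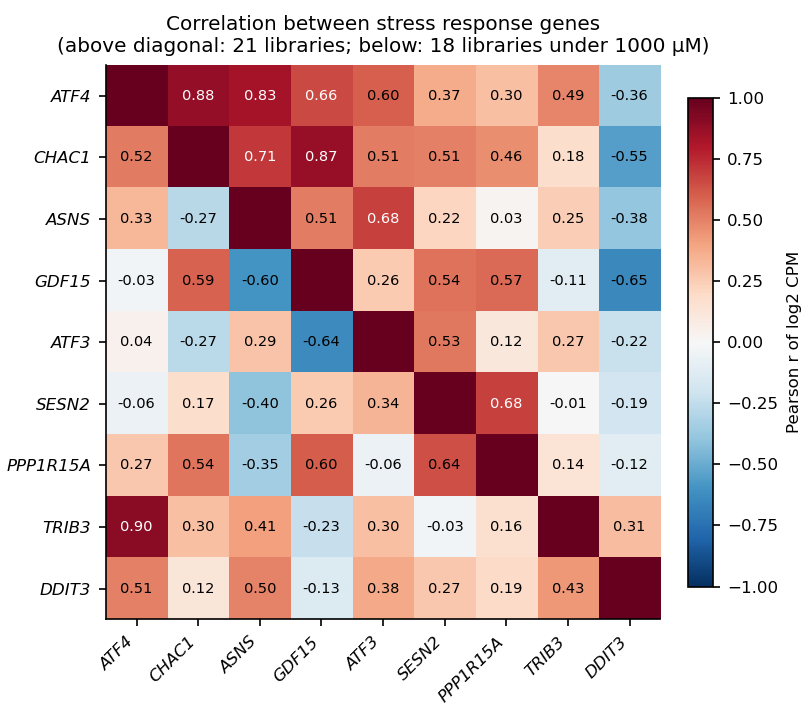
Pearson r of log2 CPM between each pair of tested genes, above the diagonal over all 21 libraries and below it over the 18 libraries under 1000 µM (colour scale from -1 to 1). ATF4 and TRIB3 are at 0.90 below 1000 µM and 0.49 over all libraries.

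Composition of the libraries moved with some of the genes. Across the 21 libraries TRIB3 had an r of -0.65 with the mitochondrial share of counts, and -0.65 over the 18 below 1000 µM, while ATF4 had -0.22 and -0.51 and ATF3 -0.31 and -0.45. GDF15 went the other way, with 0.31 and 0.44, and the other 5 tested genes lay between -0.19 and 0.17 in both sets. With that share as a covariate, chosen after the relation was seen, TRIB3 at 10 µM still passed, ATF4 and ASNS at 10 µM did not (adjusted p 0.0673 and 0.0511), and neither did TRIB3 at 0.01 µM (0.0607). CHAC1 and ATF4 had an r of 0.61 and 0.59 with the total counts of a library, whose part in these results was not tested.

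Genes outside the list whose log2 CPM was most like that of each gene were named over the 21 libraries, as a description. For ATF4 these were PPCDC (r 0.97, and 0.95 over the 18 libraries below 1000 µM), TMBIM1 and GPRC5C (both 0.96). For TRIB3 they were RCC1 (0.94, and 0.96 below 1000 µM), COMMD5 (0.94) and MRGBP (0.93). For CHAC1 they were ARRB1 (0.96), ZNF746 (0.95) and SQSTM1 (0.94), and for GDF15 they were GATA2 (0.97), INAVA (0.95) and ULK1 (0.95).

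ASNS was most like CHMP1B (0.96), AKR1C2 (0.95) and YPEL5 (0.95). DDIT3 was most like NIPSNAP1 (0.89), MANF (0.88) and B4GAT1 (0.87), genes that also fell at 1000 µM, and ATF3 was most like ZFYVE1 (0.86), RNF185 (0.85) and EGF (0.84). SESN2 and PPP1R15A shared JUN as their nearest gene (0.79 and 0.86), followed by USP35 (0.74) and TMED7-TICAM2 (0.73) for SESN2 and by MXD4 (0.84) and DDX27 (0.83) for PPP1R15A. The mean of the 9 standardised levels was most like CARS1 (0.93), HMOX1 (0.91), PPCDC and INHBE (both 0.90) and SH3BP5L (0.89).

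The genes around the response were taken as lists and counted at 1000 µM against 0 µM (edgeR quasi-likelihood, Benjamini-Hochberg adjusted over all genes), beside the 41.2% of all genes called. Of 10 amino acid transporters linked to ATF4, 6 rose and none fell (median log2 fold change 0.58). SLC38A2, which imports neutral amino acids, rose from 304 ± 7.42 to 799 ± 135 CPM (SD, n = 3; log2 fold change 1.40). SLC38A1 rose from 174 ± 9.24 to 373 ± 28.1 CPM (1.10), and SLC7A1, an importer of arginine and lysine, from 88.2 ± 1.38 to 170 ± 20.0 CPM (0.95). Against 100 µM, 7 of the 10 rose, where 8.15% of all genes did.

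Of 13 genes of tRNA charging and export, 7 rose and none fell (median 0.27), among them GARS1 (208 ± 16.8 to 290 ± 20.2 CPM, log2 fold change 0.48), TARS1 (0.33) and CARS1 (0.36). Of 11 amino acid enzymes, 2 rose and 2 fell (median -0.05). GPT2, an alanine aminotransferase, rose from 192 ± 9.40 to 289 ± 15.7 CPM (0.59), and MTHFD2, of mitochondrial folate metabolism, from 163 ± 9.47 to 270 ± 42.2 CPM (0.73). PSPH, the last enzyme of serine synthesis, fell (-0.39), as did PYCR1, of proline synthesis (-0.28).

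Of 9 tested bZIP partners and related factors (of 10 listed, BATF3 untested), 5 rose and 1 fell (median 0.58). NFE2L2, the oxidative stress factor NRF2, rose from 193 ± 15.6 to 365 ± 38.1 CPM (log2 fold change 0.92), and NFE2L1 (0.66) and JDP2 (1.04) rose too, while CEBPD fell (-1.05). Of 15 other ATF4 and CHOP targets, 9 rose and 3 fell (median 0.29). KLHL24 rose from 2.72 ± 0.368 to 10.7 ± 0.675 CPM (1.97), STC2 from 95.2 ± 7.66 to 166 ± 7.84 CPM (0.81) and the pro-apoptotic BCL2L11 from 20.5 ± 2.11 to 35.3 ± 3.21 CPM (0.78). HERPUD1 (-0.53), BBC3 (-0.49) and EIF4EBP1 (-0.46) fell.

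Upstream, 5 of 16 genes of the eIF2alpha kinases and their control rose and 4 fell (median -0.11). EIF2AK2, the kinase PKR, rose by 0.36, DELE1, which relays mitochondrial stress, by 0.32 and PPP1R15B, the constitutive phosphatase partner, by 0.33 on the log2 scale. The eIF2B subunit genes EIF2B3 (-0.47), EIF2B1 (-0.37) and EIF2B4 (-0.30) fell, while EIF2B2 (-0.01) and EIF2B5 (0.11) did not pass. Among the other kinase genes EIF2AK3 rose (0.28), EIF2AK4 fell (-0.23) and EIF2AK1 did not pass (0.08). The count of 9 was 4 without control replicate 2 and 3 without 1000 µM replicate 3.

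Of 16 genes of the ATF6 and XBP1 arm, 3 rose and 5 fell (median -0.20). The sensors ATF6 (log2 fold change 0.64) and ERN1 (0.84) and the ERAD component SEL1L (0.56) rose. Of the chaperone and secretory genes, SDF2L1 (50.6 ± 9.08 to 14.0 ± 2.57 CPM, -1.85), MANF (111 ± 11.3 to 49.7 ± 4.95 CPM, -1.15) and CRELD2 (61.9 ± 4.39 to 27.8 ± 1.93 CPM, -1.15) fell. Each of these 3 genes also fell at 100 µM. The chaperone gene HSPA5 (-0.34) and XBP1 (-0.55) fell at 1000 µM too. The chaperone genes HSP90B1 (0.02), HYOU1 (0.04), DNAJB9 (-0.14), DNAJB11 (-0.17), PDIA4 (-0.23) and CALR (-0.32) did not pass there.

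Some of the 10 genes have inputs other than ATF4, and lists of those were counted as well. Of 12 p53 targets none rose and 7 fell (median -0.44), with CDKN1A at -1.27, BTG2 at -1.35 and PHLDA3 at -1.37, while GDF15, also a p53 target, rose. Of 12 immediate early genes 2 rose (MYC 0.65, DUSP1 0.35) and 1 fell (JUND -1.13), with a median of 0.03. Of 7 tested PPARA targets 3 rose (PLIN2 0.88, CPT1A 0.84, VNN1 0.87) and 1 fell (FABP1 -1.01), with a median of 0.57. Of 10 hepatocyte markers 1 rose (APOB 0.56) and 3 fell (AFP -0.69, APOA1 -1.04, FGB -0.33), and of 2 tested markers of other cell types (CD68 and MYH11) none passed by edgeR, with 0 at an unadjusted p under 0.05. Many genes of these lists share exon sequence with a neighbour, and their counts are uncertain. Among those named these are NFE2L2, PYCR1, HSP90B1, DNAJB11, BBC3, PHLDA3 and CD68 on their own strand and others on the opposite one.

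**Figure D5:**
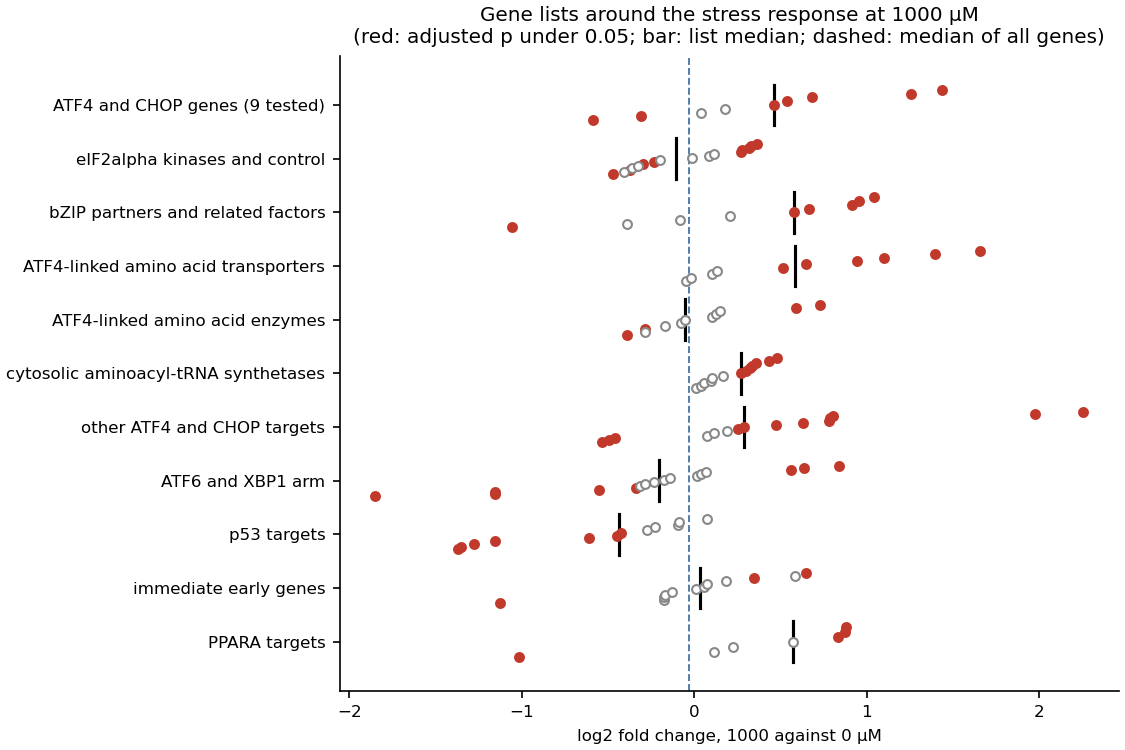
Log2 fold change at 1000 µM against 0 µM of each tested gene of the ATF4 and CHOP genes and the related lists (1 point per gene, red where the adjusted p is under 0.05 and open otherwise, black bar for the list median, dashed line for the median of all genes). Amino acid transporters and tRNA synthetases have red points only to the right, and p53 targets only to the left.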

How the data were processed

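PolyA-selected RNA of 21 HepG2 libraries was sequenced. The authors deposited counts per feature for each library; HISAT2, DESeq2 and GRCh38 are named per the submitters' processing notes, with no version, and the counting program, annotation and use of strand are not given in the sources used here. The table also held 21 further per-sample columns, which were not used, and 4700 unannotated features, which stayed in the tests where they passed the filter (1617). Symbols were matched for 24852 of 32937 Ensembl IDs. Gene positions are from GENCODE v29 on GRCh38, in which 21893 IDs were identical with their version.

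The deposited counts were analysed with edgeR 4.0.16 in R 4.3.3 (filterByExpr with a minimum count of 10, TMM, quasi-likelihood tests in 1 fit of 7 groups, Benjamini-Hochberg over 17468 genes, threshold 0.05). The fit was also run on simulated counts with the same spread for every gene and no library differences beyond depth. These libraries differ from that setting, so the simulation does not measure how far the calls hold. Limma 3.58.1 was loaded with edgeR. Standard errors were derived from each log2 fold change and its F statistic. DESeq2 1.42.0, other scalings, filters and thresholds, leaving out libraries, a replicate block and a mitochondrial covariate were alternatives. Text genes were all 10 members, up to 3 higher and 3 lower genes of smallest p per list with at least 1 CPM, and the 3 genes most like each member (5 for their mean). Further genes of the eIF2alpha list and of the ATF6 and XBP1 list are named to show how mixed these lists were. The members and lists were chosen with earlier results of these data known. The series' design text calls the control by a different compound; the labels of those samples read 0 µM caffeine, untreated, and were followed.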

Additional observations from a re-analysis of the deposited data

How the results depend on the processing

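At 1000 µM against 0 µM the calls of ATF4, CHAC1, ASNS, GDF15 and DDIT3 held in all 31 alternatives, and 5 to 7 of the 9 genes passed in each. TRIB3 there was 0.089 on the log2 scale against the mean of 0.01, 0.1 and 1 µM. PPP1R15A was -0.0053 with upper quartile scaling, -0.0061 with the mitochondrial covariate (added after seeing the data) and -0.080 (without 1000 µM replicate 1) to 0.13 with 1 library left out. The 0.01 µM count of 1 was 0 at an adjusted p under 0.01, with library totals, the mitochondrial covariate, the replicate block or the 6 libraries alone, 2 with DESeq2, and 0 to 2 with 1 library left out. Of all genes DESeq2 called 2118 there, and the 6 libraries alone called 2. Library totals and the covariate each called 1 of all genes. At an adjusted p under 0.01, and with the replicate block, 0 of all genes passed. At 1 µM the count of 0 was 1 with DESeq2 (1379 of all genes) and 0 to 1 with 1 library left out. The 10 µM count of 3 was 1 at an adjusted p under 0.01, with library totals, without a filter or with the covariate, and 0 to 3 with 1 library left out. Of all genes 1255, 3281, 3011 (of 34619) and 3360 were called in the named settings, in that order. At 100 µM the count of 0 was 1 with DESeq2 (2011 of all genes) and 4 with the 6 libraries alone (4015). It was 0 to 1 with 1 left out. Against the mean of 0.01, 0.1 and 1 µM it was 1 with DESeq2 (213 of all genes) and 0 to 1 with 1 left out. Among the 7 groups 4 passed at an adjusted p under 0.01 (2395 of all genes) and 0 without 1000 µM (159 of all genes). No slope (0) passed without 1000 µM (1051 of all genes did), where that of ATF4 was -0.022. The eIF2alpha list count of 9 was 5 with library totals or no filter and 3 to 11 with 1 left out. Replicate numbers did not pair libraries (r over 0.1 in 11 of 63 same-numbered pairs, 5 of 21 libraries best with their own number). With the replicate block the calls of ATF3 at 1000 µM (adjusted p 0.0508) and ATF4 at 10 µM (0.0555) were lost, as was the ATF4 slope (0.0512). The cause of these changes was not tested. CHAC1, ATF3 and DDIT3 were below 10 CPM, so counting error is larger for them, and caffeine response was read at 1 time, as RNA only.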
